A study of Mus musculus with 16 samples.

Results

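Kaede-red and Kaede-green CD11b+ cells, sorted from tumours 72h after photoconversion, were compared across genes. The comparison used all 8 libraries that the labels place at 72h, 4 of Kaede-red and 4 of Kaede-green cells, out of 16 libraries in the series, and 9642 of 24421 listed genes were tested. MC38-Ova, a mouse colorectal tumour line that expresses ovalbumin, was grown under the skin of Kaede transgenic mice of the C57BL/6 genotype, killed at 8 to 14 weeks of age. Every library carries the label of a control without treatment and the same batch label, and the sort kept living CD11b+ leukocytes that were CD45+ and Kaede+ but TER119- and NK1.1-. Kaede is a protein that turns from green to red under violet light, so red cells at 72h were already in the tumour when it was lit, and green cells entered at any point in the 72h that followed. The gate takes CD11b+ cells as a whole, neutrophils and CD11b+ dendritic cells included, and each library is a bulk sample, in which fewer cells of a type and less RNA per cell cannot be told apart. The other 8 libraries, 4 red and 4 green, came from the same sort at 24h. The libraries came from tumours of independent mice, as the study states, and the sources used here do not say whether a red and a green library shared a tumour.

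Monocytes that leave the blood for a tumour carry Ly6C and a store of inflammatory transcripts, and over days many take on a macrophage state. Macrophages are known for F4/80 (encoded by Adgre1), the mannose receptor, C1q, a large lysosomal system for digesting what they engulf, and the export of cholesterol taken up with dead cells. Tissue macrophages and macrophages made from monocytes share many of these genes, so a bulk level of them does not say where a cell came from.

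Total counts ran from 3650937 to 8136470 in the green libraries and from 4121410 to 15423085 in the red ones. Most counts lay in Rn45s, the precursor of ribosomal RNA, which took 79.0% to 91.0% of green and 55.8% to 73.8% of red counts (mean difference -20.0 percentage points, exact permutation p = 0.0286, two-sided, the smallest that 4 against 4 allows). Outside Rn45s the green libraries held 649407 to 780523 counts and the red ones 1080792 to 5472477, without overlap, so the green values below rest on fewer reads. Lars2 took 14.0% to 26.9% of the counts outside Rn45s in green and 1.81% to 11.1% in red. Green replicates 3 and 4 stood apart from green replicates 1 and 2 with 13688 and 14309 genes detected against 10658 and 11247. Log2 levels correlated at 0.818 to 0.868 between green libraries and at 0.918 to 0.969 between red ones, and green replicate 4 correlated at up to 0.885 with a red library. The 11 markers of CD11b+ monocytes and macrophages summed to 1248 to 1730 CPM in green and 1285 to 1576 CPM in red, where CPM, the usual unit of counts per 1000000, is taken on a library size scaled by the trimmed mean of M values (TMM). In the fit given below, 5 of the 11 were higher in red (Itgam, Ptprc, Csf1r, Adgre1 and Cd68) and 1 was lower (Tyrobp).

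**Figure D1:**
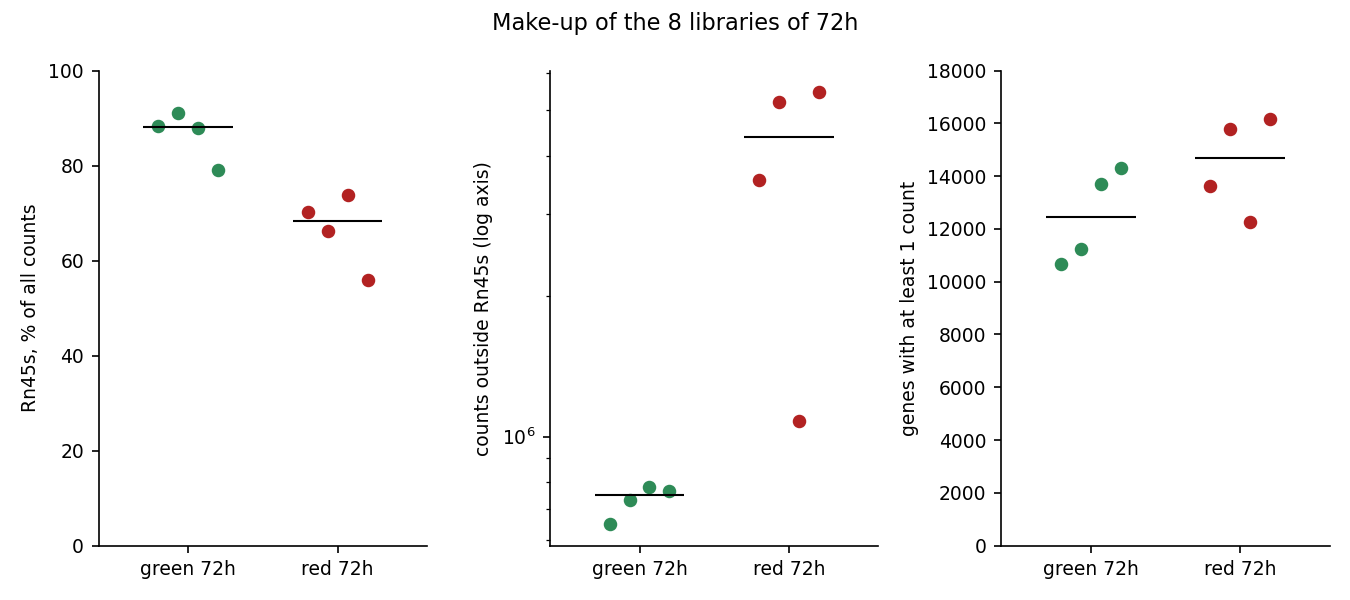
Rn45s share of all counts (%), counts outside Rn45s (log axis) and number of genes with at least 1 count in each library of 72h; points are the 4 libraries of each group in the order of their replicate numbers and lines are medians. The red and green libraries do not overlap in the first 2 measures, and red replicate 3, with 1080792 counts outside Rn45s, lies nearest to the green libraries.

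Set against newly arrived cells, retained cells had more RNA of 13 of 20 tested macrophage genes, 11 of 14 complement genes, 18 of 36 lysosome genes and 8 of 24 genes of Toll-like receptors and adaptors. They had less RNA of 67 of 81 ribosomal protein, 33 of 63 histone and 53 of 60 small nucleolar RNA genes. Of 20 tested monocyte genes 5 were lower, S100a4, Plac8 and Mgst1 among them, and 1 was higher, with a median log2 difference of 0.04. Of 22 tested genes in the cytokine list 7 were lower and 5 higher. In the edgeR quasi-likelihood fit of all 16 libraries, 777 genes were higher in red at 72h (8.06% of those tested) and 845 were lower (8.76%) at a Benjamini-Hochberg adjusted p below 0.05. Of these, 711 of the higher and 645 of the lower genes had no overlap between the 4 red and the 4 green libraries. The change was at least 2-fold for 400 higher and 612 lower genes, and the median over all genes tested was 0.03 on the log2 scale, with a median SE of 0.36. The Rn45s share separated the groups, so it and the red-green label cannot be told apart at 72h: with the share as a covariate 26 higher and 75 lower calls were left. Leaving out red replicate 1 took the higher calls to 517. With library sizes taken outside Rn45s, Lars2 and Mir6236, which moved the median gene to 0.21, 1312 genes were higher and 650 lower, so that 66.9% of calls were higher in place of 47.9%. Scaling by total counts, Rn45s included, moved the median gene to 2.04, and 99.5% of its calls were higher, with 42 genes lower. Of 345 called members of the lists, 250 were called in each of the 8 fits that left out 1 library of 72h, and losses among the genes named are given with them.

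Macrophage identity genes had the highest median difference of the 25 lists. Of 20 tested genes of mature and resident macrophages, 13 were higher in red and none was lower, with a median log2 difference of 1.53 (1.45 with Lyve1, which had no green count, placed at its lower bound), beside 0.03 over all genes. In the lists with no call in one direction by edgeR, at most 2 members of that direction had an unadjusted p under 0.05 and DESeq2 called at most 1. Adgre1, which encodes F4/80 (chr17:57358691-57483527, GRCm38), stood at 16.4, 16.2, 16.3 and 21.1 CPM in green and 57.6, 54.6, 52 and 48.1 CPM in red. Every red library lay above every green one, and the difference was log2 fold change 1.6 ± 0.21, SE, adjusted p = 1.88e-06 in edgeR. Siglec1, the sialic acid receptor of macrophages that catches sialylated particles, measured 16.1, 13.4, 18.7 and 24.7 CPM in green and 58.6, 64.9, 64.3 and 50.1 CPM in red, again with no overlap (log2 fold change 1.69 ± 0.23, SE, adjusted p = 3.26e-06). The mannose receptor gene Mrc1 had 8.77, 16.5, 15.6 and 8.32 CPM in green and 29.4, 36, 51.6 and 47.4 CPM in red. Its red values were spread between 29.4 and 51.6 CPM, all above the highest green value (log2 fold change 1.73 ± 0.25, SE, adjusted p = 1.11e-05). Cx3cr1, the fractalkine receptor, was low in both fractions at 4.39, 1.53, 2.19 and 2.86 CPM in green and 7.16, 7.09, 6.96 and 7.1 CPM in red. The red libraries were almost equal to each other and lay above all green ones (log2 fold change 1.4 ± 0.41, SE, adjusted p = 0.0161), and this call was lost when green replicate 2 (adjusted p = 0.0784) or green replicate 3 (adjusted p = 0.0626) was left out. The other higher members included Csf1r, Mertk, Axl, Maf, Cd68, Folr2, Pf4 and Gas6. The Gas6 call was lost without green replicate 1, 2 or 4 or red replicate 3 or 4. Timd4, Vsig4 and Cd5l, which mark resident macrophages of body cavities and liver, were too low to be tested.

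C1q, the recognition part of the classical complement pathway, is built of A, B and C chains whose genes lie side by side on chromosome 4 (chr4:136880129-136898803, GRCm38), and these genes held 3 of the 10 places for the largest rises among called genes whose log2 CPM averaged 4 or more and whose groups were apart. C1qa stood at 13.9, 15.9, 22.6 and 21.9 CPM in green and 94.3, 90.2, 74.4 and 81.1 CPM in red (log2 fold change 2.18 ± 0.22, SE, adjusted p = 5.91e-08). C1qb had 8.41, 13.7, 20.9 and 29.4 CPM in green and 96.9, 82.9, 67.1 and 82 CPM in red (log2 fold change 2.16 ± 0.28, SE, adjusted p = 1.58e-06), and C1qc 5.12, 6.11, 11.2 and 15.9 CPM in green and 66, 59.2, 42.5 and 66 CPM in red (log2 fold change 2.58 ± 0.25, SE, adjusted p = 5.91e-08). In all 3 genes the lowest red library lay at more than the highest green one, and green replicates 3 and 4 lay above green replicates 1 and 2. Over the whole complement list 11 of 14 tested genes were higher in red (78.6% beside 8.06% of all genes) and 1 was lower (7.14% beside 8.76%). The median log2 difference was 1.21. The higher members took in C3 and C4b, the central components of the cascade, Cfb and Cfp of the alternative pathway, the anaphylatoxin receptors C3ar1 and C5ar1, and Itgam and Itgax, which encode chains of the complement receptors 3 and 4. The Cfb call was lost without green replicate 3 or red replicate 1 or 2. The lower member was Cr1l, a regulator that protects cells from complement, with 10.2, 11.6, 5.84 and 7.8 CPM in green and 4.7, 4.82, 4.99 and 4.4 CPM in red (log2 fold change -0.9 ± 0.30, SE, adjusted p = 0.0359), and its call was lost on leaving out any library but green replicates 3 or 4.

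Of 36 lysosomal genes tested, 18 were called higher in red and none lower, with a median log2 difference of 0.69. Lgmn, the asparagine-specific protease legumain (chr12:102394084-102439813), had 86.3, 84.9, 75.2 and 119.7 CPM in green and 316, 295, 236 and 281 CPM in red (log2 fold change 1.62 ± 0.21, SE, adjusted p = 1.60e-06). Grn encodes progranulin, which is cut into granulins inside lysosomes, and had 89.5, 64.7, 69.6 and 90.00 CPM in green and 247, 214, 195 and 190.3 CPM in red (log2 fold change 1.43 ± 0.21, SE, adjusted p = 8.89e-06). In both of these genes red and green were apart in all 8 libraries. The called members included the cathepsins Ctsa, Ctsb, Ctsc, Ctsd and Ctsz, the membrane protein Lamp1, the lipid enzyme Lipa, the cholesterol carrier Npc1 and the proton pump subunits Atp6v0c and Atp6v1a. Ctsc was not called without green replicate 1, nor Atp6v1a without green replicate 2 or 3 or red replicate 1.

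Many lysosomal promoters are known to hold a copy of an E-box with flanking bases, TCACGTG, that the factors TFEB, TFE3 and MITF can bind, so the RefSeq promoters (GRCm38.p6, 250 bases before to 50 after each start) were searched for these letters on both strands. Promoters were found for 28 of the 36 lysosomal genes, and 8 of them (28.6%) held the letters, compared with 4.29% of 27025 genes in the table and 7.63% of the 7300 matched genes among those tested. A gene with several starts was counted once if any of its promoters matched. The windows of 60 bases that follow are one for each lysosomal gene called higher with a match, chosen after their values were seen, with the match on either strand in capitals.
Atp6v1a, chr16:44139359-44139418, minus strand: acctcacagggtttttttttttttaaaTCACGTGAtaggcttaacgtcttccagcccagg
Ctsa, chr2:164833733-164833792, plus strand: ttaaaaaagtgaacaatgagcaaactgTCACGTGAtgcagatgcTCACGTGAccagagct
Ctsd, chr7:142388018-142388077, minus strand: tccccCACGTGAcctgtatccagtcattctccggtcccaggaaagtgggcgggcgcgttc
Lamp1, chr8:13159072-13159131, plus strand: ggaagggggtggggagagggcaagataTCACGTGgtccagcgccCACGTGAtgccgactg
Lgmn, chr12:102439110-102439169, minus strand: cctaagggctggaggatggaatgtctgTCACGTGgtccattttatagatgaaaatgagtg
Ctsa and Lamp1 each show a pair of matches. Red was above green in each of these genes without overlap, at 1.15 ± 0.22 for Ctsd, 0.88 ± 0.19 for Lamp1, 0.87 ± 0.21 for Ctsa and 0.75 ± 0.22 for Atp6v1a on the log2 scale (± SE). The 3 matched lysosomal genes without a call were Mcoln1, Glb1 and Gla. Among all genes called higher at 72h the share with TCACGTG was 7.24%, and among genes called lower 7.96%, beside the 7.63% of all matched tested genes.

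Of 26 tested genes of lipid handling, 9 were higher (34.6% beside 8.06% of all genes) and 1 lower (3.85% beside 8.76%) in red. The median log2 difference of 0.11 lay near the 0.03 of all genes. The higher genes included the cholesterol exporters. Abca1, which loads cholesterol onto apolipoproteins, had 5.48, 13.7, 19.7 and 12 CPM in green and 39.2, 36.9, 42.5 and 41.8 CPM in red (log2 fold change 1.63 ± 0.24, SE, adjusted p = 1.52e-05), and green replicate 1 was the lowest library. Its partner Abcg1 had 14.6, 13.4, 24.3 and 27.3 CPM in green and 55.1, 50.7, 45.2 and 56.4 CPM in red (log2 fold change 1.37 ± 0.23, SE, adjusted p = 6.74e-05). Apoe, the apolipoprotein that macrophages secrete, had 84.1, 75.1, 47.9 and 64.5 CPM in green and 156, 184, 183 and 201 CPM in red (log2 fold change 1.42 ± 0.28, SE, adjusted p = 4.31e-04). Nr1h2 and Nr1h3, the sterol sensors LXR beta and LXR alpha, were higher as well, with Cd36, Plin2, Lipa and Ch25h. Nr1h2 was not called without green replicate 3, Nr1h3 without green replicate 1 or 3, and Ch25h without green replicate 2 or 3 or red replicate 1 or 2. Cd36, a receptor for oxidised lipids, was low, at 1.83, 2.14, 0.973 and 1.82 CPM in green and 5.79, 4.08, 5.75 and 4.89 CPM in red. Scd2, a desaturase of fatty acid synthesis, was the lower member with 18.3, 21.7, 19.7 and 21.3 CPM in green and 9.86, 9.13, 9.07 and 12.3 CPM in red (log2 fold change -1.0 ± 0.25, SE, adjusted p = 0.00496), and the groups were apart.

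Toll-like receptors and their adaptors were called higher in 8 of 24 tested genes and lower in none (median log2 difference 0.70). The 8 were Tlr1, Tlr7, Tlr8, Tlr9, Tlr13, Cd180, Irak1 and Unc93b1. Tlr7, Tlr8, Tlr9 and Tlr13 sense nucleic acids inside endosomes, and Unc93b1 is the chaperone that carries such receptors there from the endoplasmic reticulum. Unc93b1 had 40.9, 45.5, 31.9 and 50.2 CPM in green and 109, 106, 98.5 and 105 CPM in red (log2 fold change 1.31 ± 0.21, SE, adjusted p = 4.88e-05). Tlr8 had 4.39, 4.27, 6.81 and 4.16 CPM in green and 14.7, 16.4, 15.4 and 17.4 CPM in red (log2 fold change 1.69 ± 0.28, SE, adjusted p = 5.97e-05). Cd180, a surface relative that binds bacterial products together with MD-1, had 4.75, 10.4, 9.0 and 14.3 CPM in green and 34.4, 26.3, 26.9 and 30.6 CPM in red (log2 fold change 1.6 ± 0.26, SE, adjusted p = 4.81e-05). Red exceeded green in all 8 libraries for each of the 3. Irak1 lost its call without any library but green replicate 1 or red replicate 3, and Tlr1 without any but green replicate 4 or red replicate 3. At 24h the median log2 difference of the list was 0.08.

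The list of macrophage transcription factors, which also holds the RNA-binding protein Zfp36l1, gave 10 higher and 0 lower calls of 28 tested (median log2 difference 0.65). Maf, a factor that restrains self-renewal in macrophages, had 11.7, 14.3, 12.9 and 18.7 CPM in green and 35.6, 34.9, 39 and 36.5 CPM in red (log2 fold change 1.33 ± 0.21, SE, adjusted p = 4.09e-05). Zfp36l1, which shortens the life of AU-rich transcripts, had 8.77, 7.94, 12.2 and 11.2 CPM in green and 27, 21.2, 23.1 and 28.6 CPM in red (log2 fold change 1.31 ± 0.26, SE, adjusted p = 5.04e-04). Runx3 had 11.3, 10.1, 10.7 and 22.6 CPM in green and 38, 30.8, 20.7 and 44 CPM in red (log2 fold change 1.29 ± 0.29, SE, adjusted p = 0.00178), with red replicate 3 below green replicate 4. The rest of the 10 included Nr1h3, Id2, Zeb2, Stat3, Stat6 and Nfe2l2. Stat6 was not called without green replicate 1, Id2 without green replicate 1, 2 or 4 or red replicate 1 or 4, and Nfe2l2 without green replicate 2, 3 or 4 or red replicate 1 or 4. Cebpb, which drives inflammatory and granulocyte programmes, had 54.1, 47.9, 49.9 and 53.8 CPM in green and 59.9, 51.8, 56 and 49.5 CPM in red, levels that overlapped (log2 fold change 0.08 ± 0.19, SE, adjusted p = 0.84). Pparg was low and overlapped as well, at 3.66, 3.66, 1.95 and 3.12 CPM in green and 5.28, 5.19, 1.97 and 5.31 CPM in red (log2 fold change 0.59 ± 0.38, SE, adjusted p = 0.313). Of 24 NF-kB subunits, inhibitors and feedback genes 5 were higher and none lower (median 0.29): Nfkb1, Rela, Tnip1, Icam1 and Tnfrsf1b. Nfkb1 and Rela were not called without green replicate 1, 2 or 3 or red replicate 1 or 4, nor Rela without red replicate 2. Icam1, the adhesion ligand of LFA-1, had 8.04, 6.72, 5.84 and 7.02 CPM in green and 20.6, 20.1, 21.6 and 13.3 CPM in red (log2 fold change 1.46 ± 0.25, SE, adjusted p = 9.57e-05). Tnip1, a brake on NF-kB signalling, had 5.85, 7.94, 5.11 and 9.36 CPM in green and 18.6, 16.9, 13.6 and 18.2 CPM in red (log2 fold change 1.26 ± 0.24, SE, adjusted p = 2.81e-04), and Tnfrsf1b, the second TNF receptor, 23.4, 19.5, 28 and 35.6 CPM in green and 66.1, 63.7, 57.9 and 53.2 CPM in red (log2 fold change 1.17 ± 0.23, SE, adjusted p = 5.22e-04). All 3 were apart between the groups.

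**Figure D2:**
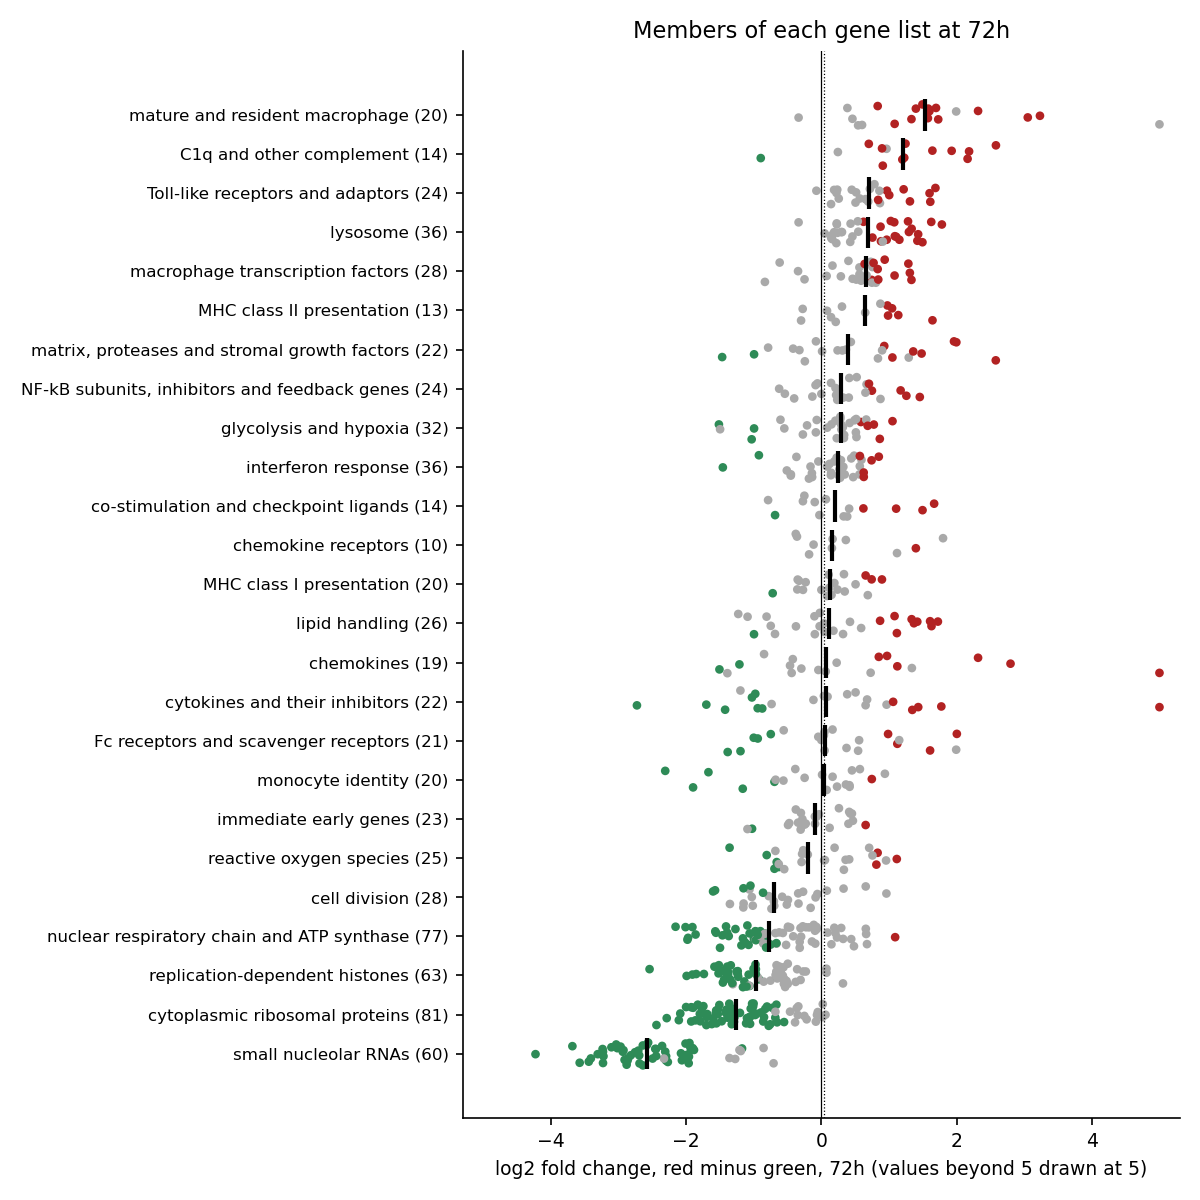
Log2 fold change, red minus green at 72h (horizontal), of each tested member of 25 gene lists, ordered by list median; red points were called higher, green points lower, grey points neither, black bars are medians and the number of tested members is in brackets. The dotted line is the median of all genes tested, 0.03; 3 members beyond 5 are drawn at 5. Mature macrophage genes have the highest median, 1.53, and small nucleolar RNAs the lowest, -2.57.

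Antigen presentation genes were higher in part. Of 13 tested genes of MHC class II presentation 5 were higher and none lower (median 0.65): H2-Aa, H2-Ab1, H2-Eb1, Cd74 and Ifi30. Cd74, the invariant chain that guards the peptide groove, had 121, 100.5, 107 and 268 CPM in green and 465, 392, 416 and 590.4 CPM in red (log2 fold change 1.64 ± 0.31, SE, adjusted p = 3.00e-04). Green replicate 4 lay apart from the other green libraries and still under the lowest red one. Mir5107, a microRNA gene inside Cd74, was among the same 10 largest rises (2.44 on the log2 scale), and reads of both cannot be told apart. H2-Eb1, the beta chain of I-E, had 43.1, 49.2, 34.8 and 66.1 CPM in green and 105, 82.1, 79.2 and 116 CPM in red (log2 fold change 0.99 ± 0.25, SE, adjusted p = 0.00588), although the C57BL/6 strain is known to make no I-E protein because its alpha chain gene is defective. Ifi30, the reductase that opens disulfide bonds of antigens in the endosome, had 34.4, 26.3, 20.9 and 43.2 CPM in green and 73.6, 60.2, 57.8 and 65.2 CPM in red (log2 fold change 1.04 ± 0.23, SE, adjusted p = 0.00152). Class I presentation moved little, with 3 of 20 genes higher (15% beside 8.06% of all genes) and 1 lower (5% beside 8.76%). Its median was 0.13. H2-K1, a classical heavy chain, had 199, 192, 158 and 208 CPM in green and 414, 365, 301 and 329 CPM in red (log2 fold change 0.9 ± 0.19, SE, adjusted p = 0.00122), and B2m, the light chain, 283, 256, 362 and 378 CPM in green and 554, 528, 489 and 569 CPM in red (log2 fold change 0.74 ± 0.21, SE, adjusted p = 0.0127); the B2m call was lost without green replicate 2 (adjusted p = 0.0696). Psme2, a subunit of the proteasome activator, was the lower gene at 38.4, 43.4, 39.4 and 37.5 CPM in green and 21.6, 28.5, 27.1 and 19.4 CPM in red (log2 fold change -0.72 ± 0.21, SE, adjusted p = 0.0149), not called without red replicate 1 or 4.

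Promoters of MHC class II genes are known for a Y box that NF-Y binds. The letters GATTGG, searched on both strands, lay in 7 of the 9 matched promoters of the list (77.8%), in 18.2% of all promoters of the table and in 23.9% of those of matched tested genes. In the other lists with matched promoters the share ran from 0% for chemokine receptors to 65.2% for cell division (15 of 23), and it was 61.1% for class I presentation (11 of 18). Windows of 60 bases are shown for the higher genes of the list with a match, the letters in capitals on either strand.
H2-Aa, chr17:34287840-34287899, minus strand: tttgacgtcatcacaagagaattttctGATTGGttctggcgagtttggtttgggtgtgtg
H2-Eb1, chr17:34305780-34305839, plus strand: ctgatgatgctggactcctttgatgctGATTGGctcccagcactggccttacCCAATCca
H2-Aa, the alpha chain of I-A, had 50.1, 58.3, 54.2 and 122 CPM in green and 141, 147, 136 and 203 CPM in red and differed by 1.14 ± 0.30 on the log2 scale (adjusted p = 0.0077); red exceeded green in every library. Of all genes called higher 20.9% held the letters and of those called lower 23.1%.

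Cytokine genes went both ways, with 5 higher and 7 lower of 22 tested. The lower ones were Il6, Il1b, Il15, Il18, Osm, Tnfsf13 and Ptgs2. Il6 had 8.77, 11.3, 8.76 and 5.2 CPM in green and 0.509, 1.84, 3.02 and 0.548 CPM in red (log2 fold change -2.73 ± 0.45, SE, adjusted p = 5.34e-05), so all red libraries were under the lowest green one at low levels. Il1b, the gene of interleukin 1 beta, had 163, 236, 191 and 172 CPM in green and 98.2, 120.4, 111 and 86.4 CPM in red (log2 fold change -0.88 ± 0.19, SE, adjusted p = 0.00112; Il1bos is annotated over the same locus). Il15, which sustains NK and memory T cells, had 14.3, 21.4, 16.8 and 15.1 CPM in green and 4.31, 6.001, 6.35 and 4.4 CPM in red (log2 fold change -1.7 ± 0.24, SE, adjusted p = 7.87e-06). Ptgs2, the inducible cyclooxygenase that starts prostaglandin synthesis, had 45, 45.5, 55.2 and 33.3 CPM in green and 19.5, 17.7, 16.3 and 13.2 CPM in red (log2 fold change -1.42 ± 0.20, SE, adjusted p = 5.59e-06). These 3 were apart in all libraries. Among the higher genes, Tgfb1 had 17.9, 20.5, 21.2 and 34.9 CPM in green and 55.6, 53.9, 44.3 and 44 CPM in red (log2 fold change 1.06 ± 0.24, SE, adjusted p = 0.0022), with green replicate 4 nearest to red. Il18bp, the secreted decoy of interleukin 18, had 2.19, 3.05, 4.62 and 4.94 CPM in green and 10.1, 9.83, 5.9 and 12.1 CPM in red (log2 fold change 1.34 ± 0.31, SE, adjusted p = 0.00239), while Il18 itself was a lower gene, a call lost without red replicate 1 or 4. Il12b had no green count and red values of 1.49, 0.933, 0 and 0.821 CPM, at least 3.77-fold higher when set against 3 counts over the green group, and it was not called without green replicate 2 or 3 (adjusted p = 0.05004 and 0.0547). Il10 was at the edge of detection, at 0, 0.305, 1.7 and 0 CPM in green and 1.53, 0.857, 1.51 and 0.653 CPM in red, and was not called (log2 fold change 0.96 ± 0.77, SE, adjusted p = 0.43).

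Chemokine genes gave 6 higher (31.6% beside 8.06% of all genes) and 2 lower calls (10.5% beside 8.76%) of 19 tested, with a median log2 difference of 0.06. Cxcl16, a membrane-bound ligand of CXCR6 that also binds oxidised lipoprotein, had 31.8, 36, 27.2 and 43.7 CPM in green and 79.5, 78.9, 68.8 and 74.9 CPM in red (log2 fold change 1.12 ± 0.26, SE, adjusted p = 0.00267). Markers of erythroid cells and platelets, Pf4 among them, summed to 3.41 to 3.97 CPM in green and 6.65 to 30.2 CPM in red, with Pf4 the 1 call of 3 tested, and their part in the Pf4 difference was not tested. Pf4, which platelets and some tissue macrophages make, had 2.19, 1.83, 3.41 and 1.04 CPM in green and 8.81, 11.1, 18.1 and 6.02 CPM in red (log2 fold change 2.32 ± 0.43, SE, adjusted p = 2.52e-04), and Ccl8, a monocyte attractant, 0.366, 0.611, 0.73 and 0.78 CPM in green and 2.7, 3.03, 10.1 and 3.71 CPM in red (log2 fold change 2.8 ± 0.65, SE, adjusted p = 0.00245). Both were apart between groups, with red replicate 3 the highest in each. Ccl5, Ccl22 and Cxcl9 were the other higher genes. Ccl5 was not called without green replicate 1, 2 or 3 or red replicate 4, and Cxcl9 without green replicate 3 (adjusted p = 0.0755) or red replicate 1 (adjusted p = 0.0812). Ccl22 fell below the count filter without red replicate 1 or 4. Ccl9 was abundant in green, at 247, 347, 247 and 182 CPM in green and 65.3, 101, 132 and 62.7 CPM in red (log2 fold change -1.51 ± 0.26, SE, adjusted p = 9.25e-05). Cxcl2, a neutrophil attractant, had 9.87, 16.2, 19.2 and 6.5 CPM in green and 5.13, 5.67, 9.83 and 3.1 CPM in red (log2 fold change -1.21 ± 0.32, SE, adjusted p = 0.00691). Its groups overlapped, and without green replicate 3 it was not called (adjusted p = 0.0619). Among chemokine receptors Cx3cr1 was the 1 call of 10 tested genes (10% higher beside 8.06% of all genes).

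Of 20 monocyte identity genes tested at 72h, 1 was higher (5% beside 8.06% of all genes) and 5 were lower (25% beside 8.76%), and the median log2 difference was 0.04. At 24h the same list had 16 lower calls and a median of -1.27. S100a4, a calcium-binding protein of motile cells, had 159.7, 211, 163 and 147 CPM in green and 24.8, 41.2, 54 and 18.6 CPM in red at 72h (log2 fold change -2.31 ± 0.25, SE, adjusted p = 2.09e-07). Plac8 had 375, 552, 703 and 539.8 CPM in green and 121, 189, 183 and 89.6 CPM in red (log2 fold change -1.9 ± 0.25, SE, adjusted p = 2.07e-06). Mgst1, a membrane glutathione transferase, had 19.4, 16.8, 22.9 and 17.9 CPM in green and 3.72, 6.46, 11.3 and 4.11 CPM in red (log2 fold change -1.67 ± 0.28, SE, adjusted p = 6.25e-05). In these 3 every red library was under every green one, and S100a6 and Gsr completed the 5. Ly6c2, which with Ly6c1 encodes the Ly6C antigen, had 79, 103, 178 and 211 CPM in green and 169, 243, 196 and 175 CPM in red, so the red libraries overlapped the upper green ones, and it was not called (log2 fold change 0.45 ± 0.26, SE, adjusted p = 0.243). With library sizes taken outside Rn45s, Lars2 and Mir6236 it was called higher (0.64, adjusted p = 0.0488). Ly6c1 was the higher gene, at 29.6, 34.5, 40.1 and 38.8 CPM in green and 66.8, 84.7, 53.8 and 34.9 CPM in red, and overlapped (log2 fold change 0.75 ± 0.24, SE, adjusted p = 0.0302); its reads can be shared with the near-identical Ly6c2. Leaving out green replicate 1 or 2, or red replicate 1 or 2, ended the Ly6c1 call.

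**Figure D3:**
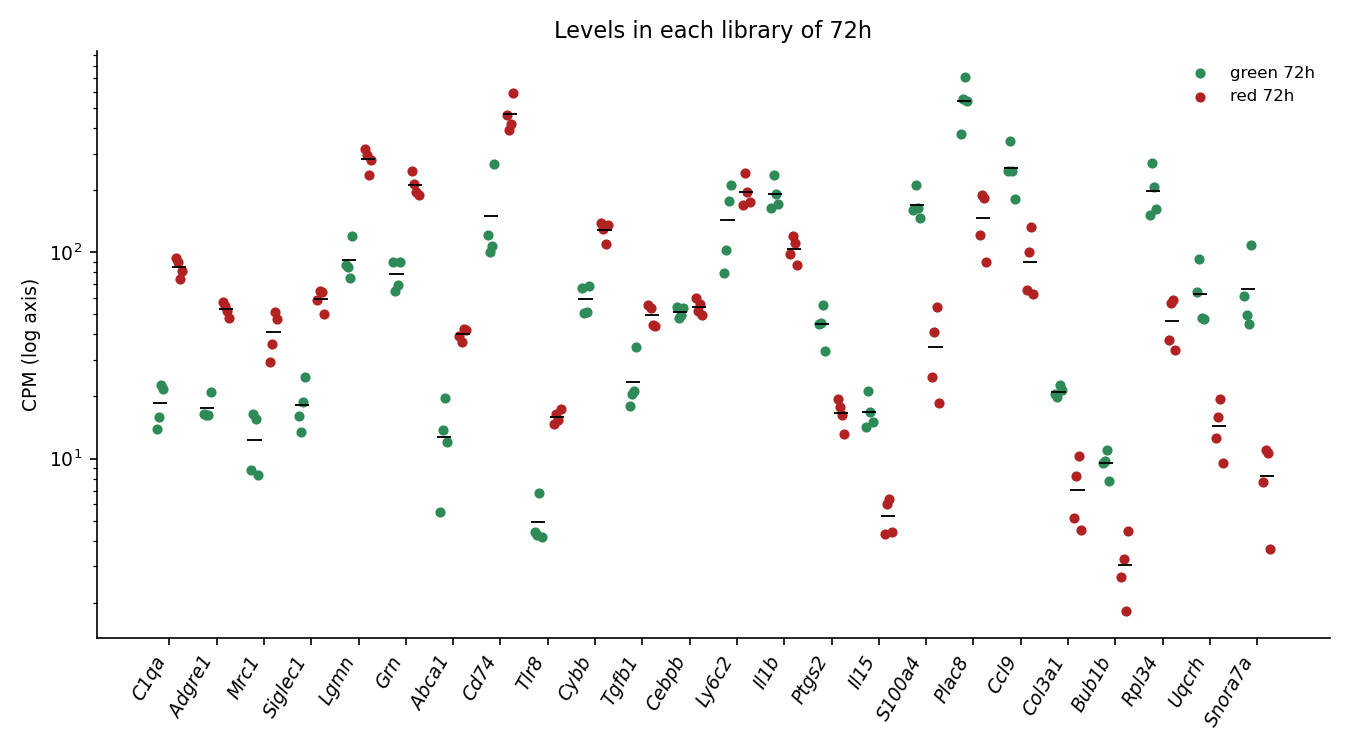
CPM (log axis) of 24 genes in each library of 72h; green points are the 4 Kaede-green and red points the 4 Kaede-red libraries, and bars are group means. C1qa sits at 74.4 CPM or more in red and 22.6 CPM or less in green, Plac8 at 189 CPM or less in red and 375 CPM or more in green, and Cebpb overlaps.

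Receptors of the innate system also divided. Fc and scavenger receptors gave 4 higher and 5 lower calls of 21 tested. Fcgr2b, the inhibitory Fc gamma receptor, had 32.2, 39.1, 46.7 and 50.7 CPM in green and 82.6, 86.6, 77.7 and 88.1 CPM in red (log2 fold change 0.99 ± 0.20, SE, adjusted p = 7.82e-04). The lower members were Clec4d, Clec4e, Clec7a, Trem1 and Tyrobp. The Trem1 call was lost without green replicate 4 or red replicate 1 or 4. Clec4d and Clec4e encode the paired lectins MCL and Mincle, which sense fungal and mycobacterial glycolipids. Clec4d had 42.8, 39.997, 59.8 and 27.3 CPM in green and 15.6, 18.2, 21.6 and 10.5 CPM in red (log2 fold change -1.39 ± 0.25, SE, adjusted p = 1.92e-04), Clec4e 68, 65.9, 65.9 and 39.8 CPM in green and 22.8, 31.7, 34.2 and 16.4 CPM in red (log2 fold change -1.2 ± 0.24, SE, adjusted p = 5.48e-04), and Tyrobp, the adaptor DAP12, 72, 87.3, 97.1 and 115 CPM in green and 42.9, 55.3, 52.3 and 35.5 CPM in red (log2 fold change -1.0 ± 0.21, SE, adjusted p = 9.17e-04). None of these overlapped. In the list of co-stimulation and checkpoint ligands 4 of 14 were higher (28.6% beside 8.06% of all genes) and 1 lower (7.14% beside 8.76%). Sirpa, the receptor of the CD47 signal that blocks engulfment, had 38.7, 33.9, 41.8 and 43.7 CPM in green and 127, 109, 94.2 and 115 CPM in red (log2 fold change 1.5 ± 0.21, SE, adjusted p = 4.66e-06). Cd276, which encodes B7-H3, had 1.46, 2.14, 2.68 and 2.34 CPM in green and 7.67, 6.61, 6.81 and 6.91 CPM in red (log2 fold change 1.67 ± 0.37, SE, adjusted p = 0.00178). Cd40 was the lower gene, at 33.6, 28.4, 21.9 and 36.2 CPM in green and 14.7, 21.8, 18.3 and 19.6 CPM in red (log2 fold change -0.69 ± 0.22, SE, adjusted p = 0.030), and lost its call on leaving out 5 of the 8 libraries in turn. Of 36 interferon response genes 5 were higher (13.9% beside 8.06% of all genes) and 2 lower (5.56% beside 8.76%), with a median of 0.24. Mx2 had 14.6, 21.1, 17.8 and 19.5 CPM in green and 4.93, 8.14, 8.02 and 5.81 CPM in red (log2 fold change -1.46 ± 0.22, SE, adjusted p = 1.81e-05) and Isg15 166, 183, 149 and 152 CPM in green and 81.3, 90.5, 109 and 62.6 CPM in red (log2 fold change -0.92 ± 0.19, SE, adjusted p = 6.60e-04), both lower in red without overlap, while Ifit1 was higher, at 48.6, 48.9, 29.7 and 46.8 CPM in green and 73, 75.7, 72.4 and 69 CPM in red (log2 fold change 0.74 ± 0.23, SE, adjusted p = 0.0236), a call lost without green replicate 3, red replicate 1 or red replicate 2.

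Tissue-remodelling genes were higher in 7 (31.8% beside 8.06% of all genes) and lower in 2 (9.09% beside 8.76%) of 22 tested. Tgfbi, an extracellular matrix protein induced by TGF-beta, was abundant, at 201, 156, 153 and 223 CPM in green and 543, 463, 399 and 471 CPM in red (log2 fold change 1.36 ± 0.23, SE, adjusted p = 6.56e-05). Mmp14, the membrane-anchored collagenase, had 15.4, 21.4, 16.3 and 28.4 CPM in green and 61.5, 51.7, 50.2 and 64.5 CPM in red (log2 fold change 1.48 ± 0.24, SE, adjusted p = 3.23e-05), and Mmp13, a secreted collagenase, 0.731, 3.05, 3.16 and 1.82 CPM in green and 9.51, 7.99, 8.62 and 9.2 CPM in red (log2 fold change 1.96 ± 0.34, SE, adjusted p = 8.49e-05). Mmp12, Adam8, Plau and Pdgfb were also higher. The 2 lower genes were Sparc, at 17.9, 9.77, 13.1 and 12.5 CPM in green and 5.28, 4.16, 6.81 and 3.56 CPM in red (log2 fold change -1.47 ± 0.32, SE, adjusted p = 0.00136), and Vegfa, the main growth factor of vessels, at 56.7, 45.5, 47.7 and 30.2 CPM in green and 28.3, 17.9, 21.8 and 22 CPM in red (log2 fold change -1.0 ± 0.21, SE, adjusted p = 7.65e-04). All 5 of these genes with values were apart between the groups. Sparc moved with the markers of fibroblasts: all 6 tested markers of 10 (Col1a1, Col1a2, Col3a1, Col6a1, Pdgfra and Thy1) were lower in red, and the list summed to 70.2 to 81.2 CPM in green and 22.05 to 29.5 CPM in red. The CD45+ gate would remove fibroblasts, and the part of such cells in the lower calls was not tested. Endothelial markers summed to 10.7 to 19.5 CPM in green and 23.1 to 37.0 CPM in red, with Pecam1 and Kdr higher. Neutrophil markers summed to 10.4 to 13 and 19.1 to 23.9 CPM, with Csf3r higher and the granule genes Camp and Ngp at 0 counts in all 8 libraries. Markers of dendritic cells (12.2 to 14.4 CPM in green and 10.2 to 12.4 in red), of T and NK cells (2.75 to 9.1 and 5.14 to 10.5) and of B cells (0 to 1.04 and 0.832 to 1.66) gave no call among the 7 tested. No marker of mast cells and eosinophils (0 to 0.73 and 0.151 to 0.379 CPM) or of tumour epithelium (0 to 1.82 and 0.705 to 1.51 CPM) passed the filter, and Krt18 and Krt19 of the latter were at 0.

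Glycolysis and hypoxia genes gave 5 higher calls of 32 (15.6% beside 8.06% of all genes) and 3 lower ones (9.4% beside 8.76%). The higher ones (Hk3, Gpi1, Aldoa, Gapdh and Eno1) are enzymes of glycolysis. Hk3 and Gpi1 were not called without green replicate 2 or 3 or red replicate 1, nor Eno1 without these or red replicate 2, and Hk3 was not called in a fit with offsets for transcript length and GC content (log2 fold change 0.39, adjusted p = 0.24). Aldoa, the aldolase, had 47.2, 38.2, 53 and 60.3 CPM in green and 113, 90.3, 83.6 and 75.6 CPM in red (log2 fold change 0.86 ± 0.22, SE, adjusted p = 0.00605), and Gapdh 19, 15.9, 19.5 and 22.9 CPM in green and 37.7, 30.7, 36.6 and 55.2 CPM in red (log2 fold change 1.05 ± 0.25, SE, adjusted p = 0.00344). The lower ones (Bnip3, Vegfa and Ankrd37) are known targets of hypoxia-inducible factor outside glycolysis. Bnip3 had 44.2, 35.7, 48.2 and 31.2 CPM in green and 15.9, 20.7, 23.1 and 18.6 CPM in red (log2 fold change -1.03 ± 0.21, SE, adjusted p = 5.74e-04), and Ankrd37 7.31, 7.33, 4.13 and 2.6 CPM in green and 2.11, 2.19, 1.81 and 1.2 CPM in red (log2 fold change -1.52 ± 0.36, SE, adjusted p = 0.00274). Oxidant metabolism gave 3 higher calls of 25 (12% beside 8.06% of all genes) and 6 lower ones (24% beside 8.76%). Cybb, the catalytic gp91 subunit of the phagocyte NADPH oxidase, had 67.3, 51, 51.1 and 68.4 CPM in green and 138, 130.1, 110.1 and 136 CPM in red (log2 fold change 1.11 ± 0.19, SE, adjusted p = 1.10e-04), while its membrane partner Cyba was lower, with 98.7, 162, 113 and 124 CPM in green and 72.5, 88.4, 93.6 and 61 CPM in red and a log2 difference of -0.66 ± 0.22 (adjusted p = 0.0365), a call lost without green replicate 2 or 4 or red replicate 1, 2 or 4. Gpx4, the peroxidase that clears lipid peroxides, had 20.5, 26.6, 29.7 and 37.7 CPM in green and 7.63, 15.8, 12.3 and 9.29 CPM in red (log2 fold change -1.36 ± 0.24, SE, adjusted p = 1.23e-04). Prdx2, Prdx5, Gpx1 and Gsr were the other lower genes. Prdx2, whose groups overlapped, was not called without green replicate 2 or red replicate 1, 2 or 4. Prdx5 was not called without green replicate 3 or red replicate 1 or 4, nor Gpx1 without green replicate 2, 3 or 4 or red replicate 1 or 4. Immediate early genes gave 1 higher and 1 lower call of 23 (4.35% each, beside 8.06% and 8.76% of all genes). Jun was higher (log2 fold change 0.65 ± 0.20, SE, adjusted p = 0.0241) and was not called without green replicate 2, 3 or 4 or red replicate 1. Nr4a1 was lower, at 28.5, 27.8, 33.6 and 28.9 CPM in green and 13, 18, 14.4 and 13 CPM in red (log2 fold change -1.03 ± 0.20, SE, adjusted p = 3.67e-04).

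Cell division genes were lower in 5 of 28 tested and higher in none (median log2 difference -0.70, and 0.04 at 24h). Bub1b, a kinase of the spindle checkpoint, had 9.5, 9.77, 10.9 and 7.8 CPM in green and 2.66, 3.28, 1.81 and 4.44 CPM in red (log2 fold change -1.57 ± 0.33, SE, adjusted p = 8.01e-04). Tpx2, a spindle assembly factor, had 13.9, 7.94, 10.2 and 9.1 CPM in green and 4.7, 4.26, 4.84 and 4.63 CPM in red (log2 fold change -1.15 ± 0.25, SE, adjusted p = 0.0015), and Cenpe, a kinetochore motor, 19.4, 18, 5.59 and 13.3 CPM in green and 3.37, 3.83, 5.29 and 5.88 CPM in red (log2 fold change -1.6 ± 0.35, SE, adjusted p = 0.00144). Green replicate 3 reached into the red range in Cenpe, and the other 2 genes were apart. Top2a and Rrm2 completed the 5, and neither was called without green replicate 4 or red replicate 1 or 2, nor Top2a without green replicate 2 or Rrm2 without green replicate 3. Replication-dependent histone genes, whose transcripts lack a poly(A) tail, were lower in 33 of 63 tested and higher in none (median -0.97). Hist1h1c, a linker histone, had 114, 105, 67.4 and 63.2 CPM in green and 32.3, 32.8, 41.4 and 21.2 CPM in red (log2 fold change -1.46 ± 0.22, SE, adjusted p = 1.76e-05), and Hist1h4i 5.48, 7.33, 5.84 and 6.24 CPM in green and 1.06, 1.16, 1.21 and 0.906 CPM in red (log2 fold change -2.54 ± 0.38, SE, adjusted p = 1.39e-05). Histone copies are nearly identical, so the level of a single copy is uncertain.

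Ribosomal protein genes gave more lower calls than any other list, with 67 of 81 tested lower in red and none higher (median log2 difference -1.26). Rpl34 had 151, 269, 207 and 162 CPM in green and 37.7, 56.5, 58.7 and 33.6 CPM in red (log2 fold change -2.09 ± 0.23, SE, adjusted p = 2.09e-07). Rpl22 had 151, 229, 161 and 120.4 CPM in green and 44.2, 49.4, 49.8 and 34.2 CPM in red (log2 fold change -1.9 ± 0.21, SE, adjusted p = 2.82e-07), and Rps14 199, 365, 227 and 220.1 CPM in green and 47, 57.6, 78.2 and 25.4 CPM in red (log2 fold change -2.29 ± 0.27, SE, adjusted p = 6.68e-07). The groups were apart in all 3. Nuclear genes of the respiratory chain and ATP synthase followed, with 36 lower and 1 higher of 77 (median -0.78). Uqcrh, the hinge protein of complex III, had 64, 92.5, 48.2 and 47.6 CPM in green and 12.6, 15.8, 19.4 and 9.48 CPM in red (log2 fold change -2.16 ± 0.23, SE, adjusted p = 2.09e-07), and Cox7b, a small subunit of complex IV, 32.5, 61.4, 49.1 and 32.5 CPM in green and 7.55, 14.3, 15.9 and 7.81 CPM in red (log2 fold change -1.97 ± 0.26, SE, adjusted p = 2.40e-06). The higher gene was Sdha, the flavoprotein of complex II, at 6.58, 5.8, 5.84 and 8.84 CPM in green and 15.5, 12.5, 13.9 and 15.9 CPM in red (log2 fold change 1.09 ± 0.24, SE, adjusted p = 0.00165).

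Transcripts of ribosomal proteins are known to start in a run of pyrimidines through which mTOR steers their translation. Of the 81 genes 61 matched a RefSeq promoter, and 24 of them (39.3%) held an unbroken run of at least 10 C or T within 25 bases of a start. The share was 10.9% of all genes in the table, 11.95% of matched tested genes, 14.3% of genes called higher and 16.1% of genes called lower. In the other lists with matched promoters it ran from 0% for immediate early genes to 33.3% for MHC class II presentation (3 of 9) and for Fc and scavenger receptors (5 of 15). The 4 lower ribosomal genes with the smallest adjusted p among those with such a run near the start are shown from 40 bases before to 20 bases from the start onward, with the run in capitals.
Rpl34, chr3:130730318-130730377, minus strand: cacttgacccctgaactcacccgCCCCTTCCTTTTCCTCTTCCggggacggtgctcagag
Rps25, chr9:44407674-44407733, plus strand: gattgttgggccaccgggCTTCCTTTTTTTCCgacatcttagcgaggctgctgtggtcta
Rpl35a, chr16:33056442-33056501, plus strand: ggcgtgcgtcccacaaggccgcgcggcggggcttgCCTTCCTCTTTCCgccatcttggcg
Rpl13a, chr7:45128726-45128785, minus strand: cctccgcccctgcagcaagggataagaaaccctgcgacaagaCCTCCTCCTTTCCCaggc
Rps25 had 119.9, 179.5, 171 and 125 CPM in green and 38.6, 47.3, 52 and 26.4 CPM in red, Rpl35a 79.3, 120.0, 103 and 97.8 CPM in green and 26.4, 41.3, 32.7 and 22.8 CPM in red, and Rpl13a 392, 542, 303 and 265 CPM in green and 78, 115, 128 and 74.1 CPM in red. Their log2 differences were -1.86, -1.70 and -1.93, and red lay under green in every library.

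Small nucleolar RNAs had the lowest median of the lists. Of 60 tested, 53 were lower in red and none higher (median log2 difference -2.57), and 72 of 79 small noncoding RNAs of all kinds were lower. Snora7a, a guide RNA inside an intron of Rpl32 (chr6:115807975-115808114), had 61.4, 49.8, 45 and 109 CPM in green and 7.67, 11, 10.6 and 3.64 CPM in red (log2 fold change -3.04 ± 0.30, SE, adjusted p = 5.91e-08). Rnu11 and Rnu12, the RNAs of the minor spliceosome, fell by 2.77 and 3.07 on the log2 scale. Gas5, a spliced host of small nucleolar RNAs, had 472, 258, 172 and 189 CPM in green and 27.6, 32.6, 68.7 and 12.7 CPM in red (log2 fold change -2.97 ± 0.34, SE, adjusted p = 6.26e-07). Rprl2, a copy of the RNA of RNase P, showed the largest fall among genes with a mean log2 CPM of at least 4, at 52.6, 70.2, 73.9 and 135 CPM in green and 3.88, 3.43, 13 and 0.59 CPM in red (log2 fold change -4.22 ± 0.49, SE, adjusted p = 6.68e-07), and its reads may be shared with near-identical copies. Snora81, Snord22, Snora74a, the RNA gene 2900060B14Rik, which lies over Clasp1, and Tmem38b filled the other places among the 10 largest falls. Green replicate 4 was the highest library in most of these, and in Tmem38b it read 5398 CPM against 330 to 414 CPM in the other green libraries; without that library Tmem38b was not called (adjusted p = 0.0554).

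Transcript length differed between the lower and the higher genes. The median transcript length was 1056 nucleotides for lower genes, 2633 for higher genes and 2134 for all tested. Among coding genes with transcripts of up to 500 nucleotides 32.7% were lower and 6.29% higher, and from 3000 to 5000 nucleotides 4.48% were lower and 11.3% higher. Within a class of length the lists stood at different shares: under 1000 nucleotides 84.8% of 66 ribosomal protein genes were lower, 57.1% of 56 respiratory chain genes and 12.5% of 1621 other coding genes. These sets were not matched in length within the class, with medians of 638, 614.5 and 753 nucleotides in that order. At 1000 nucleotides or more 11 of 15 ribosomal protein genes and 4 of 20 respiratory chain genes were lower, beside 5.40% of 7256 others. With offsets for transcript length and GC content fitted to each library, an alternative chosen after seeing the data, 64 ribosomal protein genes, 24 respiratory chain genes, 29 histone genes and 27 small nucleolar RNAs were lower, and the median of the last list moved from -2.57 to -1.10. The same fit called 14 mature macrophage and 19 lysosomal genes higher. With the red libraries thinned to the depth of the green ones, 68 ribosomal protein genes and 47 small nucleolar RNAs were lower.

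Among called genes outside the lists whose log2 CPM averaged 4 or more and whose groups were apart, the largest rises included Cd300lh, Gm11710, Gm11711 and Slc29a3. Cd300lh, a receptor of the CD300 family, had 19.7, 11.9, 6.81 and 10.7 CPM in green and 79.8, 58.5, 41.9 and 84.2 CPM in red (log2 fold change 2.46 ± 0.29, SE, adjusted p = 7.10e-07). Gm11710 and Gm11711 carried identical counts in all 8 libraries and are 1 signal. Slc29a3, a nucleoside transporter of the lysosomal membrane, had 7.31, 7.94, 11.4 and 28.4 CPM in green and 60.5, 46.7, 31.3 and 64.7 CPM in red (log2 fold change 1.87 ± 0.33, SE, adjusted p = 1.23e-04). Red lay above green in all 8 libraries for each.

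The libraries of 24h are separate samples, so the difference at 72h could be set beside the one at 24h and the change tested. At 24h 310 genes were higher and 413 lower in red. Of the genes higher at 72h, 19.0% were also called higher at 24h, and of those lower at 72h, 28.6%. Counted from the other side, 47.7% of the genes higher at 24h and 58.6% of those lower at 24h were called the same way at 72h, and 4 genes were called in opposite directions. C1qa differed by 3.26 at 24h and 2.18 at 72h, and S100a4 by -2.39 and -2.31. Mature macrophage genes had 12 higher calls at 24h and 13 at 72h, ribosomal protein genes 58 and 67 lower calls.

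The change itself was called for 73 genes (0.757% of those tested), 41 upward and 32 downward, and 39 of them were also called at 72h. This count was 18 without green replicate 2, 20 without green replicate 3, and 6, 11, 40 and 24 without red replicates 1, 2, 3 and 4. Itgal, the alpha chain of LFA-1, differed by -0.96 at 24h and 0.78 at 72h, a change of 1.75. Its call at 72h was lost without green replicate 2 or 3 or red replicate 1 or 2. S100a11, whose 72h call was lost without green replicate 1, 2 or 3, went from -0.89 to 0.96 and Ly6c1 from -0.98 to 0.75. Selplg, the ligand of P-selectin with which leukocytes roll on vessels, had 13.2, 9.77, 10.5 and 16.4 CPM in green and 38, 35.9, 28.7 and 33.7 CPM in red at 72h, and its difference went from -0.06 to 1.46. Among those that changed downward, Eif4a2, an RNA helicase of translation initiation that hosts Snora81, went from 0.19 to -1.43, with 21.9, 24.1, 21.6 and 14.3 CPM in green and 7.12, 7.79, 8.62 and 7.12 CPM in red at 72h. Gm12238, a short RNA gene inside G3bp1, went from -0.08 to -3.30, and Hist2h2bb from 0.22 to -1.35.

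**Figure D4:**
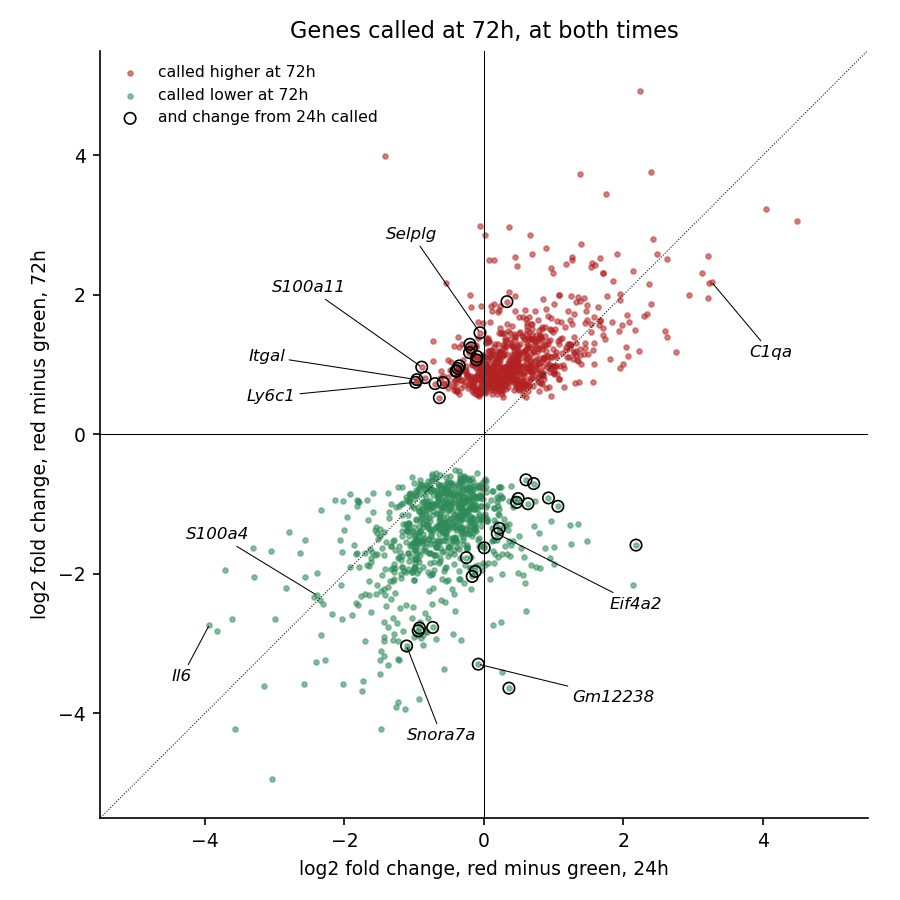
Log2 fold change, red minus green, at 24h (horizontal) and 72h (vertical) of the genes called at 72h; red points were higher and green points lower at 72h, and black rings mark the 39 genes whose change between the times was also called. The dotted line is equality, 5 genes lie outside the axes, and Itgal, S100a11 and Ly6c1 lie in the quadrant of negative values at 24h and positive values at 72h.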

How the data were processed

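RNA of cells sorted from tumours was made into libraries with the SMARTer stranded total RNA-seq mammalian pico input kit, as the labels state, and sequenced in pairs. The submitters' processing notes name Trim Galore, FastQC, HISAT2, featureCounts and the build mm10, with versions not given in the sources used here. The deposited values are raw counts per gene, whole numbers that the authors did not normalize, one file per library. A second, combined table of the series served only as a check, and the 16 single files equalled its columns.

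Groups and replicate numbers came from the sample titles. All 16 libraries entered 1 fit in edgeR 4.0.16 (R 4.3.3): genes passed filterByExpr, library sizes were scaled by TMM, and red minus green at 72h, at 24h and the change between them were tested by glmQLFTest with Benjamini-Hochberg adjustment over 9642 genes. A gene was called at an adjusted p below 0.05. CPM values are counts per 1000000 of the TMM-scaled library size, Rn45s included, so they are levels relative to other genes in a library and not per length. The SE is the fold change divided by the square root of its F statistic. Shares of a library were compared by exact permutation tests in scipy 1.17.1. The script was tested on simulated data.

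The genes given in the text were the 10 largest rises and falls among called genes whose mean log2 CPM reached 4 and whose groups did not overlap, 10 genes the study names, up to 3 called members of each list in each direction by adjusted p, and up to 5 called for the change in each direction. Some genes that this rule or the lists chose are not reported here. Members of lists beyond these are named after their values were seen. The comparison, lists and tests were chosen with earlier results of these data known. Gene positions came from GENCODE M21 (GRCm38). A group of 4 against 4 cannot give an exact p under 0.0286. Counts outside Rn45s set the precision: 649407 in the shallowest green library and 5472477 in the deepest red one. Alternatives were another test, other scalings and filters, single libraries left out, thinning, a covariate, and 2 added after seeing the data.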

Additional observations from a re-analysis of the deposited data

Results flagged for a closer look

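Single libraries stood apart from the other 3 of their group in 11 of the 252 sets of 4 values examined, where chance gives about 1 in 20. The number given is the gap to the nearest library as a share of the group's range. In green, replicate 4 was high in Adgre1 (0.939), Runx3 (0.858), Snora21 (0.906) and Tmem38b (0.918), and low in Clec4e (0.942). Snora21 read 80.6 CPM there and 15.6 to 18.2 CPM in the other green libraries. Green replicate 3 was low in Ifit1 (0.914) and high in Tlr8 (0.897), and green replicate 1 was low in Hist2h4 (0.955). In red, replicate 4 was low in Icam1 (0.847) and high in Mir5107 (0.918), and replicate 3 was low in Pparg (0.976).

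The red-green difference was called as changed between 24h and 72h in these named genes by the interaction test of edgeR (adjusted p below 0.05). Each is given as the log2 difference at 72h minus that at 24h. It went up in Ly6c1 (1.72), S100a11 (1.86), Itgal (1.75), Selplg (1.51), AI607873 (1.49), Tnfrsf1b (1.38), Ifit1 (1.33) and Cybb (1.21). It went down in Gm12238 (-3.21), Rnu11 (-2.03), Snora7a (-1.93), Snora26 (-1.88), Eif4a2 (-1.62) and Hist2h2bb (-1.57). The adjusted p of this test was 0.0482 in Ifit1, 0.0465 in Tnfrsf1b, 0.0373 in Cybb and 0.0222 in Ly6c1. Over all genes tested, 6 were called for the change without red replicate 1 and 11 without red replicate 2. Most of the calls given here were therefore lost without red replicate 1.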

How the results depend on the processing

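The counts of 777 higher, 845 lower and 73 changed genes stayed within 1.5 times under RLE factors, with Rn45s removed, with protein-coding genes alone, with the red libraries thinned, with the length and GC offsets, and with green replicates 3 and 4 both left out. The genes behind these counts were in part others. With the offsets 588 of the 777 higher and 653 of the 845 lower genes were still called. Without green replicates 3 and 4 these numbers were 439 and 567. DESeq2 called 290 genes for the change, the fit without a filter 216, and the filter of at least 10 counts in each library of 72h 150. Library sizes outside Rn45s, Lars2 and Mir6236 gave 1312 higher genes. Scaling by total counts shifted the median gene to 2.04 and gave 8092 higher, 42 lower and 1 changed gene. The Rn45s share as a covariate left 26, 75 and 34. A further limit of 2-fold kept 400 higher and 612 lower genes. With 1 library of 72h left out, the counts ran from 517 to 794 higher, from 629 to 852 lower and from 6 to 102 changed genes. Deviations from the group mean correlated at -0.0183 to 0.0287 in same-numbered red and green libraries and at -0.0556 to 0.0596 in the other pairs. With 4 libraries in each group, these values cannot decide whether same-numbered libraries shared a tumour. A replicate block gave 770 higher, 792 lower and 165 changed genes. Cebpb turned from 0.08 to -0.24 with the offsets and was not called in either fit, and the cause was not tested. The difference in Rn45s share was -21.3 percentage points without Lars2 and Mir6236. Of 121 named genes, 120 kept their side of the threshold and direction under RLE factors, 119 with thinning and 104 without green replicates 3 and 4, and in the fits made for single genes, which leave out scaling by total counts and the covariate, Cebpb was the 1 named gene that reversed. The green libraries held 649407 to 780523 counts outside Rn45s, which limits what can be seen of genes near 0 there: 3 counts over the green group correspond to 0.215 CPM.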

Other observations

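Retnla, a secreted protein that alternatively activated macrophages are known to make, had no count in the green libraries of either time. It had 1.41, 3.68, 7.71 and 11.3 CPM in the red libraries of 72h and 2.64, 6.45, 6.35 and 1.68 CPM in those of 24h. At 72h it was at least 28.1-fold higher in red when set against 3 counts over the green group, and it passed the count filter through the red libraries. Ccl22, a ligand of CCR4, also had no green count at 72h and 1.96, 0.681, 0.907 and 1.14 CPM in red, at least 5.45-fold higher by the same floor. Both genes were singled out after their values were seen.

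Hprt, a housekeeping gene of purine salvage, showed the most negative fitted difference of all genes tested (-7.41) and was called lower. It read 13262 CPM in green replicate 3 and 22.3, 31.4 and 24.7 CPM in the other green libraries, against 15.98 to 28.6 CPM in red, so the groups overlapped and the value rests on 1 library.

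Among matched genes called higher at 72h, 8.92% held GAGGAAGT, a purine-rich form of the site of PU.1 and other ETS factors, on either strand of their RefSeq promoters (GRCm38.p6). The share was 3.52% of genes called lower, 4.22% of tested genes and 3.69% of all genes in the table. These shares are descriptions without a test.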
